A study of Mus musculus with 6 samples.

Results

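The genes of oxidative phosphorylation were followed through single-cell and bulk transcriptomes of mouse kidney glomeruli. Members were taken by name: the nuclear genes of complexes I, III, IV and V whose symbols begin with Ndufa, Ndufb, Ndufc, Ndufs, Ndufv, Uqcr, Cox4i, Cox5, Cox6, Cox7, Cox8 or Atp5, the 4 genes of complex II (Sdha, Sdhb, Sdhc and Sdhd), and the protein-coding genes of the mitochondrial chromosome. Names of pseudogenes were left out. The rule found 106 members among 49492 gene names, of which 93 are nuclear and 13 mitochondrial. Complex I held 36 nuclear and 7 mitochondrial members, complex II 4 nuclear ones, complex III 8 and 1, complex IV 20 and 3, and complex V 16 and 2. A further 9 nuclear members were assembly factors that share the prefix of the subunits. At least 1 transcript was counted for 103, 103, 101 and 102 members in Drop-seq replicates 1 to 4, and for 99 members in each bulk library.

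All animals were male mice of the outbred strain CD1 IGS, 8 weeks old, with no genetic change named in the labels. There were 4 Drop-seq libraries of cells dissociated from isolated glomeruli and fixed in 80% methanol in PBS. Of the 2 bulk libraries, one was made from live whole glomeruli (500 ng of total RNA) and the other from dissociated cells that were sorted and fixed in the same way (95 ng). Drop-seq captures single cells in droplets and counts each captured transcript once by a molecular tag (unique molecular identifier, UMI). Whether each Drop-seq library had its own animals is not in the labels. The p-values therefore cover the spread among these 4 libraries alone, and that spread may be technical.

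Oxidative phosphorylation is carried out by 5 protein complexes of the inner mitochondrial membrane. Complexes I and II pass electrons to ubiquinone, complexes III and IV carry them on to oxygen, and complex V makes ATP from the proton gradient that I, III and IV build. Subunits come from both genomes, except those of complex II, which are all nuclear. In the kidney, tubular cells use this ATP to drive ion transport and are rich in mitochondria, whereas podocytes, endothelial cells and mural cells (mesangial cells, smooth muscle and renin cells) form and support the filter of the glomerulus.

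The 4 Drop-seq tables held 15465 barcodes and 18557558 UMIs (3528543 to 6411775 per library), of which 1129799 UMIs were on members. At least 300 genes were detected in 14577 cells, with a median of 979 UMIs, and no limit was set on the mitochondrial share. The clustering left out the members, the other mitochondrial genes and the pathway lists. Clusters were named from marker genes as podocyte-like (10391 cells), tubular-like (1462), endothelial-like (1870), mural-like (328) and parietal epithelial-like (386, the cells that line Bowman's capsule). Another 63 immune-like and 77 unnamed cells were not tested. Podocyte markers made up 2.38% of UMIs in podocyte-like cells, and tubular markers 2.50% in tubular-like cells. Proximal tubule markers made up 0.00164% of UMIs in tubular-like cells, and no cluster was named as proximal tubule. Results on tubular-like cells therefore do not cover the proximal tubule. The parietal-like cluster went partly against its name: it carried podocyte markers at 1.54% and parietal markers at 0.0537% of UMIs, and 95.1% of its cells had at least 2 UMIs of a second type's markers. This share was 10.01% in podocyte-like, 39.1% in tubular-like, 41.6% in endothelial-like and 42.4% in mural-like cells. Endothelial-like cells carried podocyte markers at 0.479% of UMIs, beside endothelial markers at 0.890%. Their main cluster (1747 cells) had a higher mean marker score for red blood cells (4.05) than for endothelial cells (2.83). Its 10 leading genes held 4 endothelial and 0 red blood cell markers. Doublets were not removed. Across libraries, 15 barcodes occurred in at least 2, and 6 of them were kept in at least 2. The bulk libraries held 28407317 (whole) and 24555632 (dissociated) reads on genes.

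Tubular-like cells carried several times more oxidative phosphorylation transcripts than any glomerular type, from both genomes. Nuclear members made up 8.45%, 8.53%, 7.95% and 8.52% of their UMIs in replicates 1 to 4 (mean 8.36% ± 0.277, SD, n = 4). Podocyte-like cells held 2.62%, 2.53%, 2.44% and 2.34% (2.48% ± 0.119). The lowest tubular library lay above the highest library of every other type. Mural-like cells held 2.65%, 3.16%, 2.52% and 2.63% (2.74% ± 0.284), parietal-like cells 2.54%, 2.52%, 2.26% and 2.37% (2.42% ± 0.130), and endothelial-like cells 2.001%, 1.84%, 1.71% and 1.63% (1.80% ± 0.161). Mural-like, podocyte-like and parietal-like libraries overlapped, and all 4 endothelial-like libraries lay below them.

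The mitochondrial members ordered the cell types differently below the tubular cells. They made up 8.65%, 10.4%, 10.5% and 10.1% of tubular-like UMIs (9.90% ± 0.856). In mural-like cells the shares were 1.64%, 1.99%, 2.18% and 1.96% (1.94% ± 0.222), above every library of the remaining types. Podocyte-like (1.02% ± 0.0780), parietal-like (1.06% ± 0.0774) and endothelial-like cells (1.09% ± 0.104) overlapped. The UMIs of mitochondrial members were 1.19 ± 0.123 times those of nuclear members in tubular-like cells, 0.714 ± 0.114 times in mural-like, 0.613 ± 0.0879 times in endothelial-like, 0.439 ± 0.0378 times in parietal-like and 0.412 ± 0.0442 times in podocyte-like cells.

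**Figure D1:**
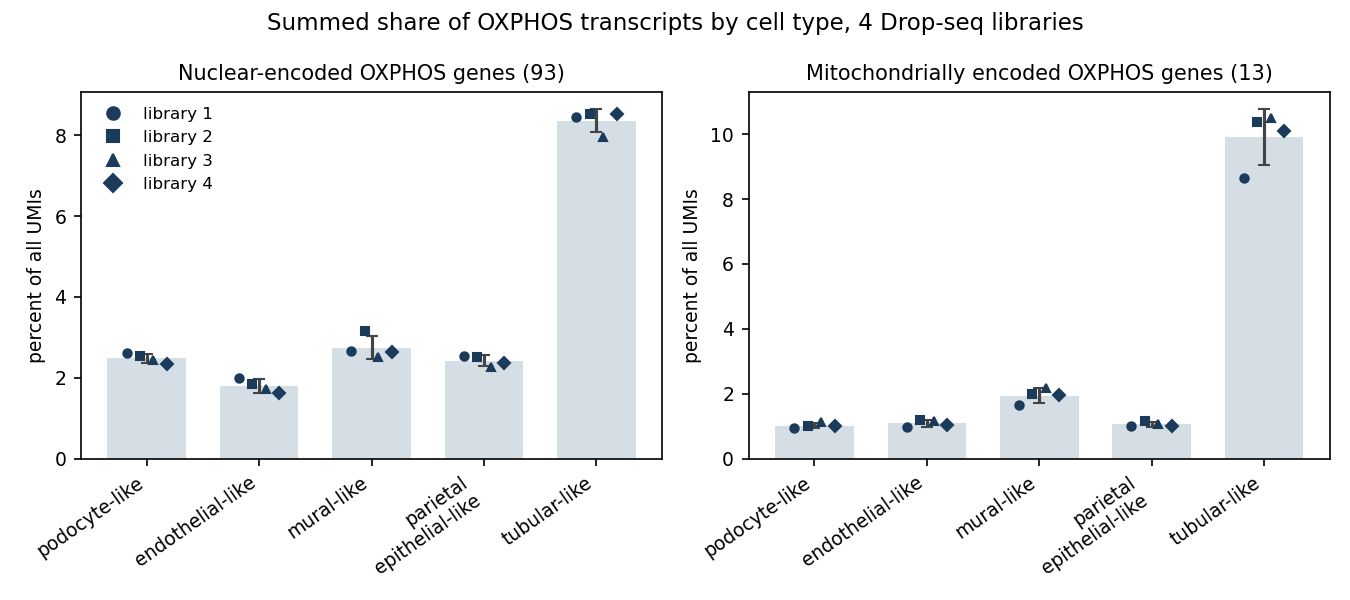
Summed share of all UMIs, in percent, taken by the 93 nuclear (left) and 13 mitochondrial members (right) in each cell type; bars are means over 4 libraries, error bars SD and symbols single libraries. Tubular-like cells stand at 8.36% and 9.90%, above every library of the 4 glomerular types, and mural-like cells are second for the mitochondrial members at 1.94%.

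Tubular-like cells were few, yet they carried most of the mitochondrial members' UMIs. They also had the most UMIs per cell (median 1667, against 1016 in podocyte-like cells), so shares of cells and of UMIs are unlike measures. They were 6.98%, 15.8%, 8.29% and 7.86% of the kept cells in replicates 1 to 4, and they held 53.6%, 76.4%, 61.5% and 60.8% of those UMIs. Of the nuclear members' UMIs they held 29.98%, 52.2%, 37.7% and 37.4%. Replicate 2 had the most tubular-like cells and the highest share on both counts. More than 20% of a cell's UMIs were mitochondrial (ribosomal RNAs included) in 561 of 1462 tubular-like cells (38.4%), against 12 of 10391 podocyte-like cells (0.115%). With cells above 20% left out, 89 of 92 members tested were higher in tubular-like cells, where 29.8% of 7552 genes were. With a limit of 10%, 80 of 84 members were higher, where 16.3% of 3184 genes were, and the members' median log2 difference was 1.51. Such a limit selects cells by the mitochondrial members themselves, so these counts are no independent check.

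The difference reached nearly every subunit gene. Each gene's summed counts in tubular-like cells were compared with the mean of the 4 glomerular types by edgeR's quasi-likelihood test over 7713 genes, with library as a block and Benjamini-Hochberg adjustment at 0.05. A filter on low counts passed 93 members, of which 90 were higher and 0 lower. Over all genes tested, 30.9% were called higher and 26.2% lower. The members' median log2 difference was 2.32, and that of all genes 0.00. The fit scaled the sums by TMM (trimmed mean of M-values). Its factors were 0.756 to 0.774 in tubular-like and 0.967 to 1.20 in glomerular sums. The fitted tubular differences are therefore larger than those between the plain CPM values given below. No alternative scaled these sums by total counts. With no filter on low counts, 95 of 105 members were higher and 1 lower. By complex, the test called higher 36 of 36 nuclear genes of complex I (median 2.14), 4 of 4 of complex II (2.56), 8 of 8 of complex III (2.31), 13 of 16 of complex IV (2.35), 15 of 15 of complex V (2.44) and 7 of 7 assembly factors (1.66). The 7 mitochondrial members tested rose most as a group (median 3.43, from 3.37 to 3.60). Left out by the filter were Atp5s, Cox6a2, Cox7b2, Cox8b, Cox8c, Ndufaf1, Ndufaf6 and 6 mitochondrial members.

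**Figure D2:**
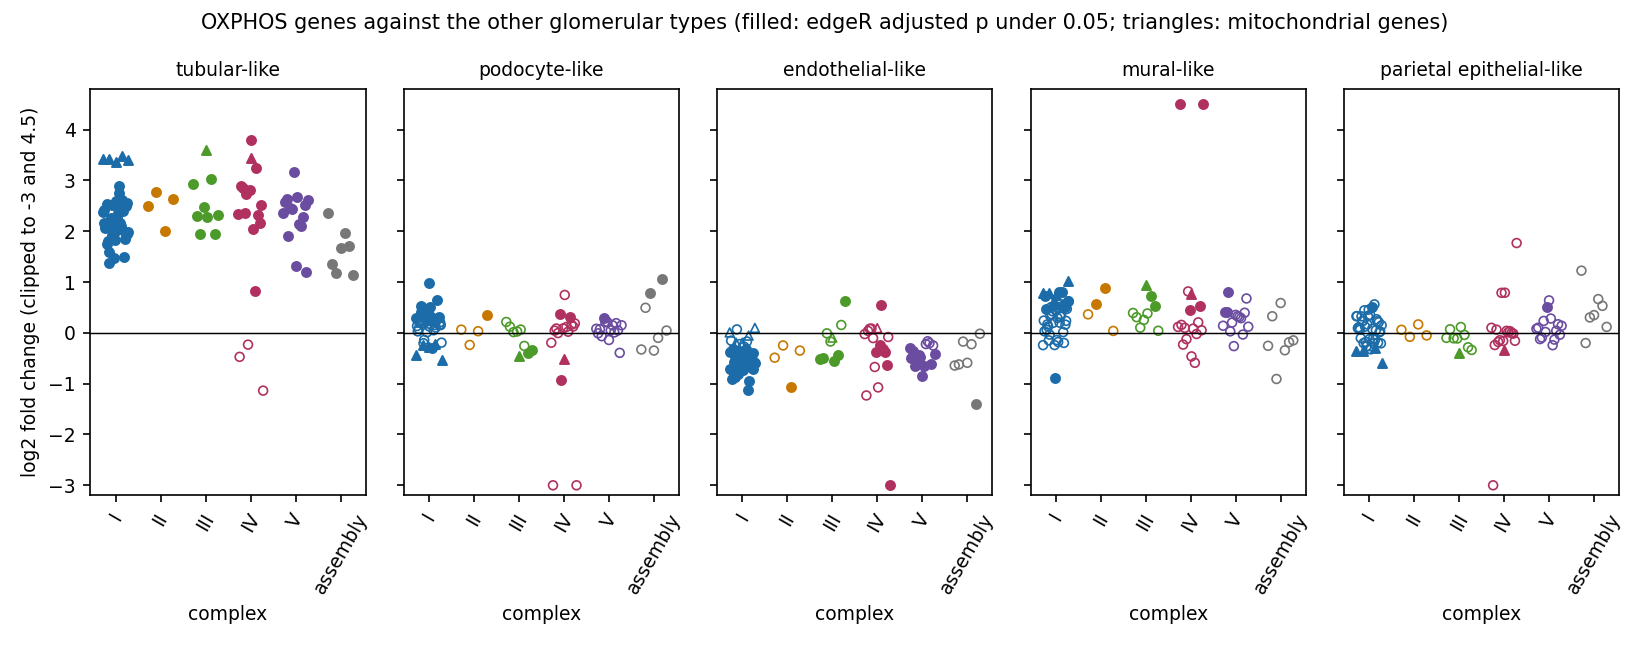
Log2 difference of each tested member by complex (x axis) in 5 panels: tubular-like cells against the mean of the 4 glomerular types, and each glomerular type against the mean of the other 3. Filled symbols passed the test at an adjusted p of 0.05, triangles are mitochondrial genes, and values are clipped at -3 and 4.5. Tubular-like cells have 90 of 93 members higher, and endothelial-like cells have 54 lower.

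Among single genes, mt-Cytb, the mitochondrially encoded cytochrome b of complex III, was at 28091, 34406, 33872 and 33353 CPM (UMI counts scaled to the same total in every library) in tubular-like cells and at 2480, 2989, 3333 and 3026 in podocyte-like cells. The groups did not overlap, and the log2 difference from the glomerular mean was 3.60 ± 0.0641 (SE; edgeR adjusted p = 1.31e-55). For mt-Nd5 of complex I it was 3.49, and for mt-Co1, the catalytic subunit of complex IV, 3.45. The 1 member with a larger fitted difference than mt-Cytb was the isoform gene Cox7a1 (3.79). Cox7b, a small structural subunit of complex IV, led the ubiquitous nuclear subunits, at 2717, 2597, 2775 and 2450 CPM against 502, 459.5, 475 and 401 in podocyte-like cells (log2 difference 3.24 ± 0.0796, adjusted p = 6.55e-47). Atp5g1, 1 of 3 genes for the c subunit of the ATP synthase rotor, rose by 3.16, and its paralogs Atp5g3 and Atp5g2 by 2.67 and 1.31. The c subunit protein made from the 3 genes is the same after its import signal is removed.

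Complex II also links the chain to the citric acid cycle. Its flavoprotein gene Sdha was at 294, 275, 268 and 306 CPM in tubular-like and 80.5, 77.2, 69.6 and 65.1 in podocyte-like cells, a log2 difference from the glomerular mean of 2.49 ± 0.116. The iron-sulfur subunit Sdhb rose by 2.76 ± 0.0824, and the membrane anchors Sdhc and Sdhd by 2.004 ± 0.104 and 2.63 ± 0.105. All 4 genes were higher in 4 of 4 libraries, and the largest edgeR adjusted p among them was 9.88e-28. The smallest called rise of a member was that of Cox7a2l (0.81 ± 0.111), a factor that joins complexes III and IV into supercomplexes. The 3 tested members that were not called were the isoform genes Ndufa4l2, Cox4i2 and Cox6b2.

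Within the tubular-like cells, those with markers of the distal convoluted tubule (699 cells) were compared with those of the connecting tubule and collecting duct principal cells (184 cells). Another 487 tubular-like cells were left unnamed and are not covered. Of them, 343 formed a cluster with near-equal mean marker scores for the distal convoluted tubule (0.651) and mural cells (0.648). The comparison thus holds only part of the cells with distal convoluted markers. UMIs of mitochondrial members were 1.10 times those of nuclear members in unnamed, 1.34 in distal convoluted and 1.19 in connecting and principal cells. Mitochondrial members made up 10.4%, 13.3%, 13.1% and 12.7% of UMIs in the distal convoluted cells and 7.28%, 8.00%, 8.53% and 8.07% in the connecting and principal cells. Nuclear members made up 9.56%, 9.22%, 8.84% and 9.31% in the former and 7.12%, 7.23%, 6.005% and 6.61% in the latter. Neither pair of groups overlapped. By the edgeR test 52 of 87 members were higher and 0 lower in distal convoluted cells, where 8.68% of the 2453 genes tested were higher and 6.77% lower. The 52 comprised 45 of 80 nuclear and 7 of 7 mitochondrial members. DESeq2 called 30 of 87.

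The largest called differences between these segments were spread over the complexes. Ndufb9, an accessory subunit of complex I, was at 1357, 1574, 1474 and 1617 CPM in distal convoluted and 817, 965, 886 and 819 in connecting and principal cells (log2 difference 0.84 ± 0.137, edgeR adjusted p = 7.19e-06). Uqcr11, a small subunit of complex III, differed by 0.84 ± 0.138, and mt-Co1 by 0.80 ± 0.121. Of complex II, Sdhb differed by 0.71 ± 0.146, whereas Sdha (0.14 ± 0.203), Sdhc (0.32 ± 0.192) and Sdhd (0.01 ± 0.174) did not pass. The intercalated cells (58 cells), which secrete acid or base, held nuclear members at 7.18% ± 0.533 and mitochondrial members at 5.56% ± 0.977, the lowest mitochondrial share of the tubular segments. Cells of the thick ascending limb (34 cells) held 8.01% ± 0.465 and 8.71% ± 1.74. These last segments had too few cells per library for a test.

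Several subunits of complex IV have a second gene with a narrower range of tissues, and these isoform genes differed in pattern. Cox7a1, known as the heart and muscle isoform of subunit VIIa, lies on chromosome 7 at 30184144 to 30186078 (GRCm38, GENCODE M21). It was at 34.3, 50.02, 34.7 and 39.3 CPM in tubular-like cells, from 134 UMIs in all. In podocyte-like cells it was at 9.09, 4.40, 5.32 and 5.76 CPM, and endothelial-like, mural-like and parietal-like cells held 3, 1 and 3 UMIs. The tubular libraries lay above all others. Its level in tubular-like cells was 7.10 times that in podocyte-like cells (95% interval 5.33 to 9.53, counting error only). The log2 difference from the mean of the 4 glomerular types was 3.79 ± 0.378 (edgeR adjusted p = 4.21e-14), a fitted value that rests in part on the few UMIs of the last 3 types. For the broadly expressed partner Cox7a2 it was 2.05 ± 0.0735.

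The mural-like cells alone held substantial counts of the other isoform genes Ndufa4l2 and Cox4i2. Of the mural markers, the leading genes of this cluster held Ren1, Acta2, Rgs5, Myh11 and Akr1b7, and not Pdgfrb, Itga8, Des, Art3 or Tagln. The share of mesangial cells in it was not tested. Ndufa4l2, a paralog of the complex IV subunit gene Ndufa4 known as a target of hypoxia-inducible factor, lies on chromosome 10 at 127514967 to 127517154. It was at 204, 176, 303 and 237 CPM in mural-like cells (72 UMIs). Podocyte-like, parietal-like and tubular-like cells held 1, 3 and 2 UMIs, and endothelial-like cells 0. Its level was 2943 times that of podocyte-like cells (512 to 117822), 360 times that of tubular-like cells (96.2 to 3033), 35.6 times that of parietal-like cells (11.7 to 177), and at least 114-fold higher than in endothelial-like cells, with the floor at 3 UMIs over the group. The floor was used only where there were 0 UMIs, and the other folds rest on 1 to 3 UMIs. These folds therefore do not rank the types. Ndufa4 itself was at 662, 947, 531 and 483 CPM in the same mural-like cells and was not called there.

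Cox4i2, the lung and smooth muscle isoform of subunit IV that takes part in oxygen sensing, lies on chromosome 2 at 152754173 to 152765037. It was at 143, 154, 288 and 286 CPM in mural-like cells (69 UMIs). Podocyte-like and endothelial-like cells held 1 UMI each, tubular-like cells 2 and parietal-like cells 0. Its level was 2820 times that of podocyte-like (490 to 112980), 328 times that of endothelial-like (56.9 to 13139) and 345 times that of tubular-like cells (92.1 to 2909), and at least 34.2-fold higher than in parietal-like cells. Here too the folds other than the last rest on 1 or 2 UMIs and do not rank the types. The broad isoform Cox4i1 was at 1039, 1079, 1001 and 917 CPM in mural-like cells, and at 843, 834, 857 and 809 CPM in those like podocytes. Cox6b2, known from testis, was low everywhere, between 14.9 ± 2.55 CPM in podocyte-like and 41.0 ± 14.6 in parietal-like cells, and was called lower in podocyte-like cells (log2 difference -0.93 ± 0.298, edgeR adjusted p = 0.0085).

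**Figure D3:**
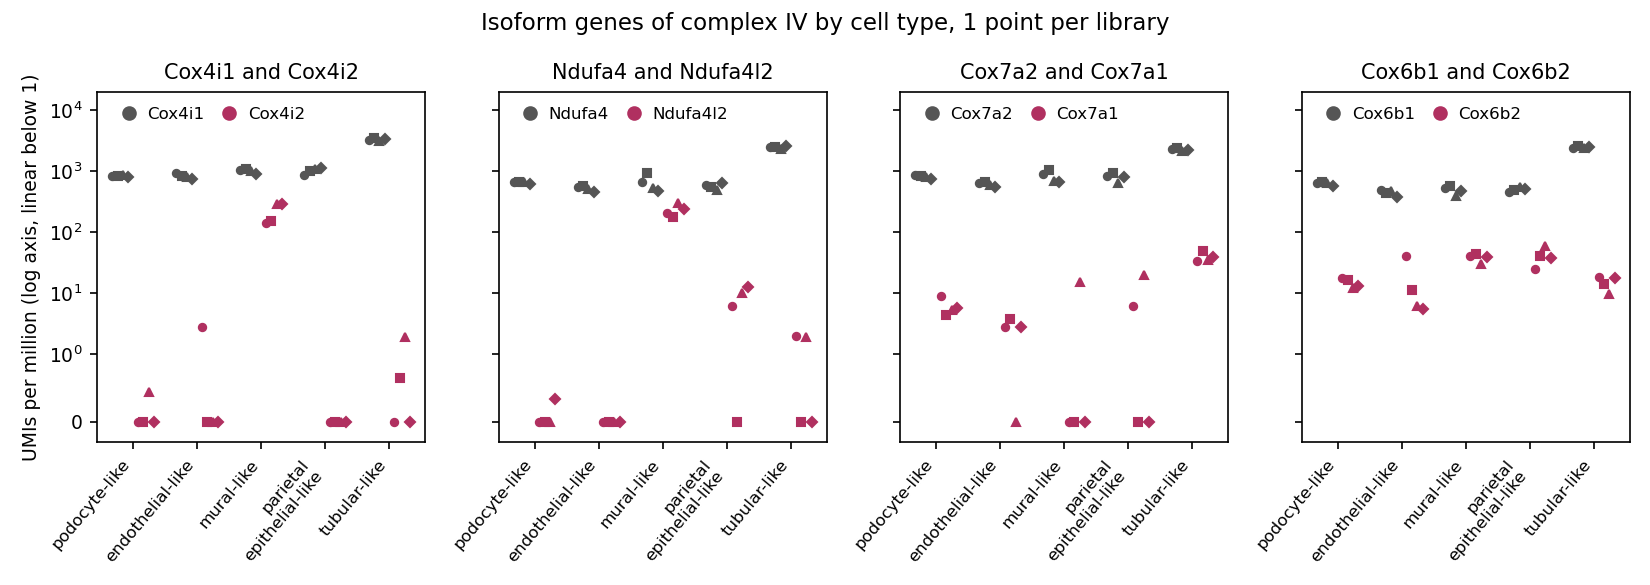
CPM (log axis, linear below 1) of 4 pairs of complex IV genes by cell type; each symbol is 1 library (circle, square, triangle and diamond for replicates 1 to 4). Ndufa4l2 and Cox4i2 reach 143 to 303 CPM in mural-like cells and stay under 13 CPM elsewhere, and Cox7a1 is highest in tubular-like cells.

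Promoter sequences are shown for 4 nuclear members that differ in pattern: Cox7a1, its partner Cox7a2, and the genes Cox6a1 and Atp5g3, whose promoters hold motifs of factors known to drive nuclear genes of the respiratory chain. Each is the 250 bases upstream of the start, 5′ to 3′ on the gene's strand, from RefSeq on build GRCm38.p6, which had an entry for 74 of the 93 nuclear members. Capitals mark motif matches. Cox7a1 (chr7:30183921-30184170, plus strand) and Cox7a2 (chr9:79759854-79760103, minus strand) held none of the 3 motifs searched. Cox6a1 (chr5:115348959-115349208, minus strand) held the core of nuclear respiratory factor 1 (NRF1) and, on the reverse strand, the core bound by GABP and other ETS factors. Atp5g3 (chr2:73911327-73911576, minus strand) held the extended half-site of estrogen-related receptors (ERR) on the reverse strand.
Cox7a1: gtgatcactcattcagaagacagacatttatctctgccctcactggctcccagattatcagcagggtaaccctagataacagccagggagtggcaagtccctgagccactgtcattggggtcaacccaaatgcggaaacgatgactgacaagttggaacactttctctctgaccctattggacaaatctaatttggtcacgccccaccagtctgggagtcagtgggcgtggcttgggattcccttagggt
Cox7a2: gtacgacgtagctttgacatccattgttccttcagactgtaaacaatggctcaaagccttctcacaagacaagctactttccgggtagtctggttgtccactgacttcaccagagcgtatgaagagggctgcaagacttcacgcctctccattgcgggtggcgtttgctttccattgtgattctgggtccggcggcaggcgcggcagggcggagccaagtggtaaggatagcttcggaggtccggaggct
Cox6a1: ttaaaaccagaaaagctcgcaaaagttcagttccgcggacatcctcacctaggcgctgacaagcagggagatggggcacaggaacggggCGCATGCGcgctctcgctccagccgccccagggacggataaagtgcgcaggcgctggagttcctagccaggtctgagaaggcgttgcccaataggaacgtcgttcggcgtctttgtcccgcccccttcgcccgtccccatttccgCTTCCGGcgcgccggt
Atp5g3: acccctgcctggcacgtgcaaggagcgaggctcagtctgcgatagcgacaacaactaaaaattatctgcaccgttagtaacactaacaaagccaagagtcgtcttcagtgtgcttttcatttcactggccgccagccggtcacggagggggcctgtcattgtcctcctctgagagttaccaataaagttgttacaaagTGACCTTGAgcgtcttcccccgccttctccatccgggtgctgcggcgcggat

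Searched on both strands, the NRF1 core CGCATGCG stood in 8 of 74 members (10.8%) and in 1.75% of the 27025 genes with a promoter entry. The ETS core CCGGAAG stood in 14 members (18.9%), against 7.83% of genes. The ERR half-site TCAAGGTCA stood in 1 member, Atp5g3 (1.35%), against 0.422% of genes. The members' windows had a median GC content of 56.4%, and all windows 52.4%. A match is a description of the letters and no measure of binding.

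Podocyte-like cells stood close to mural-like and parietal-like cells in complex I transcripts and above endothelial-like ones. The nuclear genes of complex I made up 0.861% ± 0.0513 of UMIs in podocyte-like, 0.873% ± 0.0898 in mural-like, 0.822% ± 0.0674 in parietal-like and 0.525% ± 0.0543 in endothelial-like cells (SD, n = 4), and only the last did not overlap with the podocyte-like libraries. Against the mean of endothelial-like, mural-like and parietal-like cells, 21 of 93 members were higher and 11 lower by the edgeR test, where 20.6% of all genes were higher and 20.6% lower, so the share of members called higher was near that of all genes. The members' median log2 difference was 0.10, and that of all genes -0.01. Of the 21, 15 were among the 36 nuclear genes of complex I. The 11 comprised all 7 mitochondrial members tested and 4 nuclear ones. DESeq2 called 16 higher and 15 lower. Leaving out replicate 1, 2 or 4 left 6 lower in each case.

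Ndufb4, an accessory subunit in the membrane arm of complex I, was at 386, 294, 323 and 312 CPM in podocyte-like cells and at 155, 161, 126 and 102 in endothelial-like cells. It was 255, 132, 45.5 and 59.1 in mural-like cells, so no endothelial-like or mural-like library reached the podocyte-like range. Parietal-like cells, also in the mean compared against, are not covered by this statement. The rise is thus not shown to be particular to podocyte-like cells. The log2 difference was 0.99 ± 0.119 (adjusted p = 1.22e-10, edgeR). Assembly factors rose as well: Ndufaf7, an arginine methyltransferase, by 1.05 ± 0.318 (adjusted p = 0.00536) and Ndufaf3 by 0.78 ± 0.246 (adjusted p = 0.00804). Ndufs5, Ndufa3, Ndufb6, Ndufa6, Ndufa5 and Ndufb3, all of complex I, rose by 0.40 to 0.64, and Cox6b1 of complex IV by 0.37.

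The mitochondrial members were lower in podocyte-like cells than in the mean of endothelial-like, mural-like and parietal-like cells. The log2 differences ran from mt-Nd5 (-0.22 ± 0.0807, edgeR adjusted p = 0.0243) to mt-Nd6 (-0.53 ± 0.107, adjusted p = 3.79e-05). For mt-Co1 the log2 difference was -0.51, for mt-Cytb -0.46, for mt-Nd1 -0.43, for mt-Nd4 -0.29 and for mt-Nd2 -0.23. Uqcrh, the hinge protein of complex III, fell by 0.39 on the log2 scale. These calls depended on the types compared against. The mean held the mural-like cells, whose summed mitochondrial share lay above every library of the other glomerular types. The podocyte-like, parietal-like and endothelial-like shares overlapped. With tubular-like cells added to the mean compared against, 1 member was higher and 74 lower, and Ndufa3, Ndufb6, Ndufa5, Cox6b1 and Sdhd turned negative. With no filter on low counts, 74 members were higher and 0 lower while the median of all genes moved to 0.48, and Uqcrh, mt-Nd2, mt-Nd4 and mt-Nd5 turned positive. Without the library block, 13 were higher.

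Endothelial-like cells had less transcript of most nuclear members than the mean of the other 3 glomerular types. By the edgeR test 54 of 93 members were lower and 2 higher, where 15.4% of all genes were lower and 26.9% higher. The members' median log2 difference was -0.44, and that of all genes 0.08. Called lower were 31 of 36 nuclear genes of complex I, 1 of 4 of complex II, 4 of 8 of complex III, 6 of 16 of complex IV, 11 of 15 of complex V and 1 of 7 assembly factors. None of the 7 mitochondrial members was called (log2 differences -0.19 to 0.10). Endothelial-like cells had the lowest median depth of the types tested (641 UMIs, against 1016 in podocyte-like cells). They held mitochondrial ribosomal RNA at 5.68% of UMIs, against 3.27% in podocyte-like cells. They also carried podocyte markers, and their main cluster scored high on red blood cell markers. The part of these traits in the result was not tested.

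Ndufs1, the large iron-sulfur subunit of complex I, was at 11.1, 34.4, 32.5 and 35.8 CPM in endothelial-like cells and 53.3, 66.1, 66.9 and 64.1 in podocyte-like cells (log2 difference -1.12 ± 0.273, edgeR adjusted p = 0.000519). Sdhc was at 55.5, 49.7, 62.9 and 57.8 CPM against 116, 123, 109 and 106 (-1.07 ± 0.183, adjusted p = 1.06e-06). In neither gene did the 2 types overlap. Ndufs3 of the complex I core fell by 0.96, Ndufa12 by 0.91 and Ndufa5 by 0.86 on the log2 scale. Only Uqcrq, a small subunit of complex III, and Cox7a2l were higher, Uqcrq at 743, 680, 725 and 608 CPM against 508, 467, 443 and 424 in podocyte-like cells (0.63 ± 0.0971, adjusted p = 1.03e-07) and Cox7a2l by 0.55 ± 0.138 (adjusted p = 0.000682). With tubular-like cells in the mean, 85 members were lower and 1 higher.

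Mural-like cells had more of the mitochondrial members and of part of the nuclear ones than the mean of the other 3 glomerular types. By the edgeR test 26 of 93 members were higher and 1 lower, where 12.9% of all genes were higher and 8.98% lower, and the members' median was 0.31 against -0.05 for all genes. The 26 comprised 7 of 7 mitochondrial members, 8 of 36 nuclear genes of complex I, 2 of 4 of complex II, 2 of 8 of complex III, 4 of 16 of complex IV and 3 of 15 of complex V. Leaving out replicate 4, which held 112 of the 328 cells, left 14 members higher.

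In these cells mt-Cytb was at 5203, 6630, 6641 and 6634 CPM, against 2688 to 3699 in endothelial-like cells, a log2 difference from the other 3 types of 0.95 ± 0.0800 (edgeR adjusted p = 2.28e-16). For mt-Nd6 it was 1.02 ± 0.159, and for the other 5 mitochondrial members between 0.57 and 0.79. Of the nuclear genes, Sdhc rose by 0.87 ± 0.232 (adjusted p = 0.00263), Ndufb9 by 0.81 ± 0.171 and Atp5d, a subunit of the central stalk of complex V, by 0.80 ± 0.153. Ndufb4 was the 1 called lower (-0.89 ± 0.248, adjusted p = 0.0044). Set against a mean that includes tubular-like cells, 25 members were lower and 2 higher, and the sign turned for mt-Cytb, mt-Nd1, mt-Nd2, mt-Nd4, mt-Nd5, mt-Co1, Cox8a and Sdhb. Tubular markers made up 0.0887% of mural-like UMIs (0.0273% to 0.189% over libraries), 0.0310% of podocyte-like and 2.50% of tubular-like UMIs; their part in these differences was not tested. With cells that carried 2 or more UMIs of a second type's markers left out, 21 members were higher and 2 lower.

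Parietal-like cells had the fewest members called, 2 higher and 6 lower of 93, where 8.05% of all genes were higher and 5.69% lower. The share of members called lower was thus near that of all genes. On simulated data of 7713 genes the test recovered 40% of 2-fold changes for parietal-like, 32% for mural-like and 80% for podocyte-like cells. These rates were not taken for the members alone and do not give the recovery for them. Few calls by themselves are no measure of a small difference. Ndufb8 of complex I was at 344, 459, 302 and 319 CPM (0.52 ± 0.148, edgeR adjusted p = 0.00965). Atp5g1 was higher in 3 of 4 libraries (0.52 ± 0.172, adjusted p = 0.0306). The 6 lower members were all mitochondrial, from mt-Nd5 (-0.29) to mt-Nd6 (-0.60). Here too the mean compared against held the mural-like cells, with their higher mitochondrial share. Both rises turned negative with tubular-like cells in the mean, where 54 members were lower and 0 higher. Without replicate 4 the test called 1 member lower, without replicate 3 it called 2, and without replicate 1 it called 3. Leaving out replicate 1, 2 or 3 left 1 higher in each case. No value could be had with cells of mixed markers left out, since too few remained.

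Genes around the chain were read from lists of related function. In tubular-like cells, 14 of 14 subunits and carriers outside the naming rule, 26 of 28 tested assembly factors, 18 of 18 genes of the citric acid cycle and pyruvate dehydrogenase, 13 of 14 of glycolysis and 7 of 10 regulators of mitochondrial biogenesis were higher, and 0 in any list were lower, where 30.9% of all genes were higher. Idh2, the mitochondrial NADP-dependent isocitrate dehydrogenase, was at 572, 686, 703 and 621 CPM (log2 difference 3.38 ± 0.106, edgeR). Ppargc1a, the coactivator that drives mitochondrial biogenesis, was at 169, 196, 258 and 173 CPM, against 2.51, 6.03, 9.75 and 4.41 in podocyte-like cells. Esrrg, an estrogen-related receptor, was at 36.3, 38.3, 50.1 and 46.5 CPM (129 UMIs), with 5 UMIs in the 4 glomerular types together. Ckmt1, the mitochondrial creatine kinase, was at 169, 119, 118 and 141 CPM, and Aldoc, an aldolase, at 42.3, 34.4, 30.8 and 44.7.

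In the glomerular types fewer genes of these lists were called. All values here are log2 differences from the same edgeR fits, and each gene named passed an adjusted p of 0.05. In podocyte-like cells, where 20.6% of all genes were higher and 20.6% lower, 14 of 28 assembly factors were higher and 0 lower, led by Uqcc1 of complex III (1.30 ± 0.226) and Tmem126b of complex I (1.10 ± 0.202). Of 14 subunits and carriers, 3 were higher and 4 lower. The outer membrane channels Vdac2 (0.96) and Vdac1 (0.92) were among the higher ones, and the lower ones were Slc25a4 (-0.76), Slc25a5 (-0.46), Slc25a3 (-0.45) and Usmg5 (-0.32). Of 14 glycolysis genes 5 were lower and 1 higher, the lactate dehydrogenase gene Ldhb falling by 1.88 on the log2 scale. Of 18 citric acid cycle genes 4 were higher and 1 lower.

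In endothelial-like cells, where 15.4% of all genes were lower and 26.9% higher, 8 of 14 subunits and carriers were lower and 1 higher, with Vdac1 at -1.27 ± 0.146 and Vdac3 at 0.97 ± 0.178. Of 18 citric acid cycle genes 4 were lower and 0 higher, with Suclg1 at -1.32 ± 0.218. Glycolysis genes went both ways: Hk1 (1.60 ± 0.372) and Ldha (1.25 ± 0.134) were higher, and Tpi1 (-1.003 ± 0.186), Eno1 (-0.69 ± 0.254) and Aldoa (-0.54 ± 0.107) lower. So did the assembly factors, with 2 of 28 higher and 5 lower. Sco2, a copper chaperone of complex IV, was higher by 2.08 ± 0.514, and Coa7 by 1.09. The lower ones were Timmdc1 (-1.04), Ecsit (-0.99), Cox17 (-0.72), Surf1 (-0.64) and Cox20 (-0.50).

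In mural-like cells, where 12.9% of all genes were higher and 8.98% lower, 10 of 14 glycolysis genes were higher and 0 lower, with Ldhb at 2.21 ± 0.284 and the glucose transporter gene Slc2a1 at 2.17 ± 0.635. Of 14 subunits and carriers 6 were higher and 1 lower, the adenine nucleotide carrier Slc25a4 at 1.98 ± 0.131 and Vdac2 at -0.49 ± 0.175. Of 18 citric acid cycle genes 6 were higher and 0 lower, and of 28 assembly factors 0 were higher and 1, Uqcc2, lower (-1.09 ± 0.249). Parietal-like cells had at most 2 genes called in either direction in each list.

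Of the 13 mitochondrial members, 6 were almost without counts in every library. The 7 counted members had at least 1972 UMIs in each Drop-seq library and 6126 reads in each bulk library. The other 6 (mt-Co2, mt-Co3, mt-Atp6, mt-Atp8, mt-Nd3 and mt-Nd4l) had at most 7 UMIs and 1 read. Of all stretches of 50 bases in their transcripts, 100% in mt-Co2, 99.9% in mt-Co3, 99.5% in mt-Atp6, 98.8% in mt-Nd4l and 98.0% in mt-Nd3 also stand in other annotated genes. Most of these lie side by side on chromosome 1, from Gm28439 (start 24611535) to Gm29216 (end 24616197). mt-Atp8 had 0% shared and 0 counts in all 6 libraries. Only annotated transcripts were searched, so a copy of mt-Atp8 without annotation would not be seen. The shared portion was 62.2% in mt-Nd4, 51.1% in mt-Co1, 8.19% in mt-Nd2, 7.61% in mt-Nd5 and 0% in mt-Cytb, mt-Nd1 and mt-Nd6. Reads with more than 1 alignment were 9.47% (whole) and 14.7% (dissociated) of the bulk reads; how such reads were treated in the Drop-seq counts is not given in the sources used here. The summed mitochondrial shares above therefore cover 7 genes. mt-Nd6 lies opposite the end of mt-Nd5 on the other strand, and since no use of strand in counting is stated, reads from their overlap cannot be told apart.

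**Figure D4:**
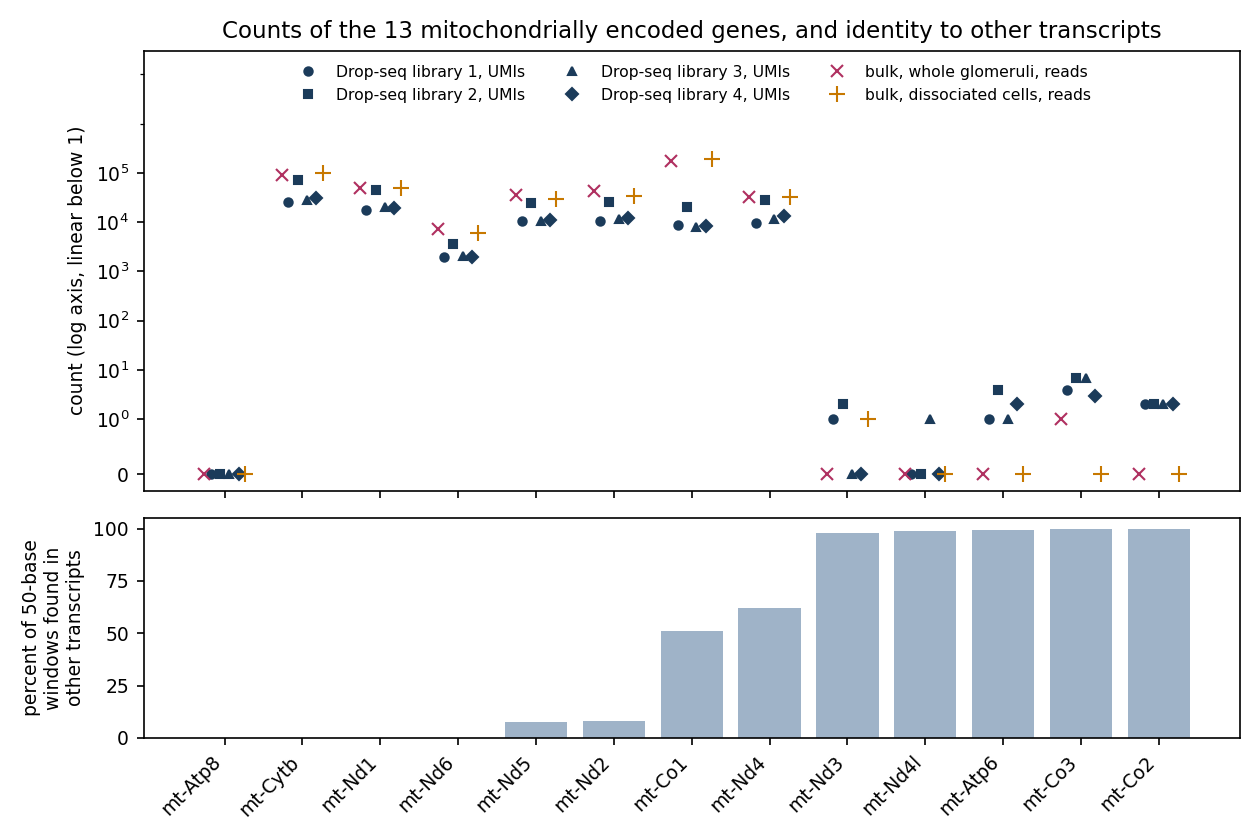
Top: counts of the 13 mitochondrial members in 4 Drop-seq libraries (UMIs) and 2 bulk libraries (reads), on a log axis that is linear below 1. Bottom: percent of each transcript's 50-base windows found in other annotated transcripts. The 5 members at 98.0% or more, and mt-Atp8, have at most 7 counts in any library.

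The make-up of the mitochondrial counts differed between the methods. mt-Co1 gave 40.5% (whole) and 43.0% (dissociated) of the mitochondrial members' bulk reads, but only 8.83% to 10.3% of their UMIs in the 5 cell types of the Drop-seq data. mt-Cytb gave 20.7% and 22.5% of the bulk reads and 29.0% to 32.7% of the UMIs. The Drop-seq protocol counts transcript ends and the bulk protocol reads along the whole transcript. Of the 50-base windows of mt-Co1, 51.1% also stand in other annotated genes, against 0% for mt-Cytb. The part of the protocols and of the shared windows in this difference was not tested. Within the Drop-seq data the make-up of the 5 cell types was alike, with mt-Nd1 at 20.9% to 22.5%, so that the tubular excess was similar for all 7 genes.

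In bulk, the library of dissociated, sorted and fixed cells had higher values of most members than that of whole glomeruli. There was 1 library per group, so the values carry no replicate check and no test was made. Scaled by TMM (trimmed mean of M-values), 64 of the 95 members with at least 100 reads were more than 1.5-fold higher and 2 more than 1.5-fold lower, where 22.6% of 12692 genes were higher and 27.9% lower. The members' median log2 ratio was 0.73, and that of all genes -0.02. Scaled by total counts, 37 were higher and 5 lower, with medians of 0.43 and -0.32. Of the 95 members, 89 lay above the median of all genes. Another scaling shifts all genes nearly alike, so this count stayed the same and is no check on the scaling. Higher past 1.5-fold were 27 of 36 nuclear genes of complex I, 0 of 4 of complex II, 6 of 8 of complex III, 12 of 15 of complex IV, 14 of 16 of complex V, 3 of 9 assembly factors and 2 of 7 mitochondrial members.

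The largest rises were those of small subunits. Atp5e, the epsilon subunit of complex V, went from 59.6 to 160 scaled CPM (1881 to 3537 reads, log2 ratio 1.42), Cox7a2 from 73.4 to 196 (2316 to 4343 reads, 1.42) and Ndufa5 from 27.6 to 73.7 (872 to 1629 reads, 1.41). Ndufs5, Ndufaf2 and Ndufa1 followed at 1.32, 1.31 and 1.30. Ndufaf2 shares 64.1% of its 50-base windows with the overlapping gene B230220B15Rik, so its reads are uncertain. The mitochondrial members changed less, from mt-Nd2 (0.17) to mt-Cytb (0.66), whereas the mitochondrial ribosomal RNAs rose from 0.0296% to 0.133% of reads.

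The genes that fell were led by the mural isoforms. Ndufa4l2 went from 587 reads (95% Poisson interval 540 to 636) to 52 (38.8 to 68.2), a log2 ratio of -2.94. Cox4i2 went from 123 reads (102 to 147) to 42 (30.3 to 56.8), a ratio of -1.01. Other falls were Atp5l (-0.40), Cox6b2 (-0.36), Ndufaf4 (-0.32) and Atp5sl (-0.13). Among marker genes measured in the same libraries, 5 of 9 mural markers fell past 1.5-fold (median -1.56; Pdgfrb -2.78, Itga8 -6.45, but Acta2 0.05 and Ren1 -0.13), 10 of 11 endothelial markers fell (median -1.78), and 13 of 13 proximal tubule markers fell (median -6.18). Of the podocyte markers 10 of 11 rose (median 1.09), and of 16 distal tubular markers 3 fell and 1 rose (median -0.02, from -1.76 for Slc12a1 to 1.08 for Pvalb). Fewer cells of a type and less RNA per cell cannot be told apart in bulk values, and neither can dissociation, sorting, fixation and the amount of RNA here.

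Between these libraries the log2 ratio was higher for shorter transcripts. Among 12407 genes with a length, Spearman's rho between transcript length and log2 ratio was -0.26, and among 93 members it was -0.47; genes are not independent replicates, so no p is given. The median length was 957 bases for the members and 3011 for all genes. Under 1000 bases the median log2 ratio was 0.91 in 49 members and 0.64 in 846 genes. From 1000 to 2000 bases it was 0.65 in 35 members and 0.29 in 2542 genes, and from 2000 to 4000 bases 0.40 in 7 members and -0.04 in 4999 genes. Over 4000 bases it was 0.49 in 2 members and -0.27 in 4020 genes. Within these 4 bins the members' median exceeded that of all genes by 0.28, 0.36, 0.44 and 0.75, and without regard to length, over the genes with a length, by 0.75.

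**Figure D5:**
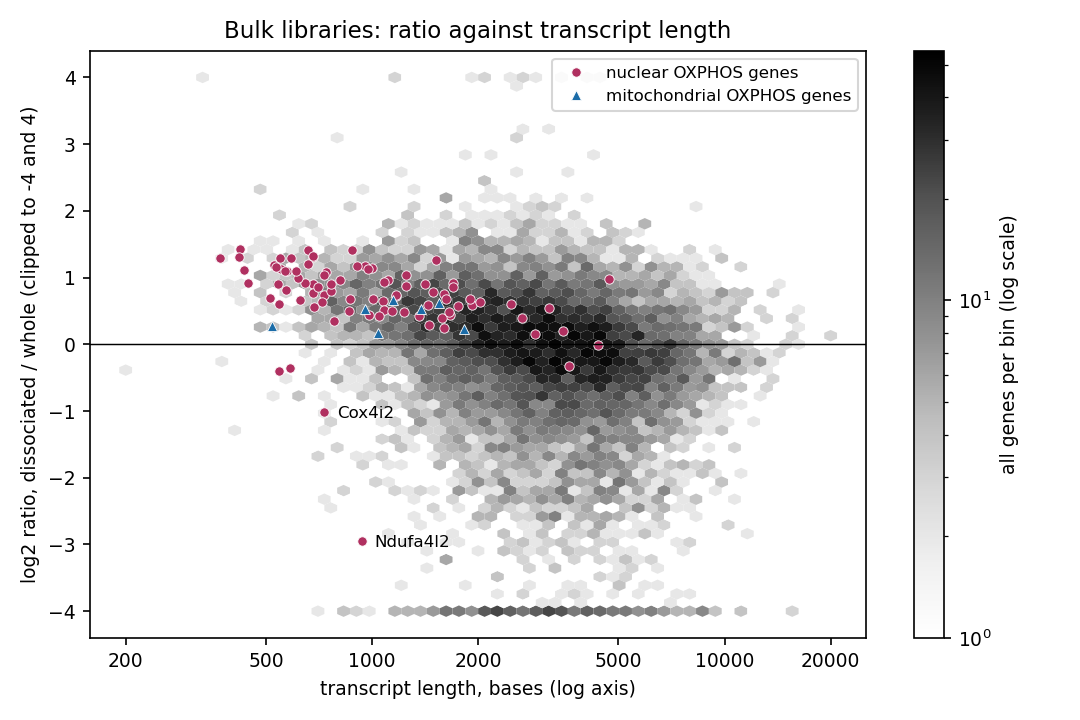
Log2 ratio of dissociated over whole in bulk (y axis, clipped at -4 and 4) against transcript length in bases (log axis); grey shading counts all genes, points are nuclear and triangles mitochondrial members. Most members lie above 0 on the left of the plot, under 2000 bases, and Ndufa4l2 (-2.94) and Cox4i2 (-1.01) lie below.

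Per length, 6 mitochondrial genes (mt-Co1, mt-Cytb, mt-Nd1, mt-Nd2, mt-Nd4 and mt-Nd5) had the highest levels among members in both bulk libraries, followed by mt-Nd6 and Atp5b, whose order differed between the libraries. mt-Co1 was at 3994 (whole) and 4988 (dissociated) RPKM (reads scaled for transcript length and library total), and mt-Cytb at 2761 and 3527. Among nuclear members, Atp5b, the catalytic beta subunit of complex V, was at 450 and 550 RPKM, and Cox8a of complex IV at 253 and 446. In all, nuclear members took 0.716% (whole) and 0.989% (dissociated) of the bulk reads and mitochondrial members 1.53% and 1.79%.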

How the data were processed

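The Drop-seq values are UMI counts per gene and barcode, and the bulk values read counts per gene, both made by the authors before they were deposited. STAR and HTSeq are named in the submitters' processing notes. Their versions, the genome build, the annotation and the use of strand are not given in the sources used here. Bulk libraries were prepared with a stranded mRNA kit, per the labels' protocols. Lines of the bulk tables that name no gene were left out; reads assigned to no feature were 9.68% (whole) and 6.14% (dissociated) of all lines' reads. The members and gene lists were chosen with earlier results of these data known.

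Cells with at least 300 genes were scaled to 10000 UMIs, log-transformed and clustered in scanpy 1.11.5 (Python 3.11.15) on 2000 variable genes without members, mt- genes and pathway lists, with 30 principal components, 15 neighbours and Leiden resolution 1.0. Counts were summed over the cells of a type in a library where there were 20 or more, and types with such sums in 3 or more libraries entered the test of edgeR 4.0.16 (quasi-likelihood, TMM, R 4.3.3), with library as a block. Sums of 1 library share their cells' source. Their deviations had a median correlation of 0.145 (0.0212 to 0.442, 40 pairs), and sums of different libraries -0.0466. The edgeR step was tested on simulated data. Intervals on UMI or read counts (exact, 95%) cover counting error only.

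Bulk ratios used TMM scaling, genes of 100 or more reads and a prior count of 2. The text names, per comparison, up to 10 rises and 6 falls that passed the threshold in the same direction in every library, in bulk the 6 largest rises and falls, all mitochondrial and Sdh members, the isoform genes, and up to 4 genes of each pathway list. Further list genes, named where 5 or fewer were called one way, and the extreme tubular markers in bulk were chosen after their values were seen. Transcript lengths, coordinates and shared windows of 50 bases come from GENCODE M21, which listed 104 of 106 members. The alternatives were DESeq2 1.42.0, other clustering resolutions, cell filters, library sizes, comparison groups and low-count filters, no replicate block, and each library left out.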

Additional observations from a re-analysis of the deposited data

Results flagged for a closer look

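Of 104 groups of 4 libraries checked, 7 held a library that stood apart from the other 3, and chance alone gives about 1 in 20 groups. The nuclear members' share of UMIs was lowest in replicate 3 of the tubular-like cells, at 7.95% against 8.45% to 8.53% in the others. Replicate 2 was highest for the nuclear members over all kept cells, at 3.96% against 3.13% to 3.23%, and over all barcodes, at 3.95% against 3.12% to 3.20%. The same library had the most tubular-like cells, 678 against 241 to 293. Among single genes, mt-Cytb was lowest in replicate 1 in tubular-like cells (28091 CPM against 33353 to 34406) and in mural-like cells (5203 CPM against 6630 to 6641). In podocyte-like cells mt-Nd1 was highest in replicate 3 (2448 CPM against 2004 to 2075). In endothelial-like cells Ndufs1 was lowest in replicate 1 (11.1 CPM against 32.5 to 35.8).

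Barcodes under 300 detected genes entered no comparison, and they too held mitochondrial members. These made up 3.001%, 16.7%, 6.41% and 7.37% of their UMIs in replicates 1 to 4, with a mean of 8.37%, against 2.49% in the kept cells. Nuclear members made up 2.33% of UMIs in these barcodes and 3.37% in the kept cells, and the mitochondrial ribosomal RNAs 18.6% and 4.46%.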

How the results depend on the processing

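The tubular count of 90 higher and 0 lower changed in 1 of its alternatives past 1.5-fold, when no filter on low counts gave 1 member lower. A mean that includes tubular-like cells gave 1 higher and 74 lower for podocyte-like cells, 1 and 85 for endothelial-like, 2 and 25 for mural-like, 0 and 54 for parietal-like ones. It reversed Ndufa3 (-0.15), Ndufb6 (-0.085), Ndufa5 (-0.066), Cox6b1 (-0.34) and Sdhd (-0.32) in podocyte-like cells, mt-Cytb (-0.013), mt-Nd1 (-0.11), mt-Nd2 (-0.12), Cox8a (-0.041), Sdhb (-0.16), mt-Co1 (-0.15), mt-Nd4 (-0.15) and mt-Nd5 (-0.34) in mural-like cells, and Ndufb8 (-0.11) and Atp5g1 (-0.30) in parietal-like cells. No filter on low counts gave 74 higher and 0 lower in podocyte-like, 12 and 2 in mural-like and 0 and 12 in parietal-like cells, with medians of all genes of 0.48, -0.35 and -0.30, and in podocyte-like cells it reversed Uqcrh (0.017), mt-Nd2 (0.18), mt-Nd4 (0.13) and mt-Nd5 (0.19). Leaving out cells with a second type's markers gave 37 higher and 7 lower in podocyte-like and 2 lower in mural-like cells. A limit of 10% on the mitochondrial share gave 7 lower in podocyte-like cells and 1 higher and 1 lower in parietal-like cells; a limit of 20% gave 36 higher in podocyte-like, 2 lower in mural-like and 1 higher in parietal-like cells, and 32 higher between tubular segments. Requiring 500 genes gave 1 higher in endothelial-like and 3 lower in parietal-like cells. Leiden resolution 0.6 gave 2 lower in mural-like cells and 5 higher and 3 lower in parietal-like cells, and resolution 1.5 gave 5 higher in the latter. Library sizes without mitochondrial genes gave 2 lower in mural-like cells. DESeq2 gave 30 higher between tubular segments. Without the replicate block 13 members were higher in podocyte-like and 1 in parietal-like cells, and the block changed no other count by over 1.5-fold. Leaving out each library in turn gave 17 to 31 higher and 6 to 10 lower in podocyte-like, 14 to 23 higher in mural-like, and 1 to 2 higher and 1 to 5 lower in parietal-like cells. In bulk, scaling by total counts gave 37 higher and 5 lower, and a call at 2-fold gave 25 higher. The causes of these changes were not tested. For single genes named in the text, 1110 values under the alternatives kept direction and call (in bulk, stayed within their counting error), 117 kept the direction but not the call, 26 moved and 19 reversed. The mural-like and parietal-like sums rest on the fewest cells, 328 and 386.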
